A study of Mus musculus with 7 samples.

Results

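Integrins and leukocyte adhesion genes encode the surface proteins with which blood cells hold on to matrix and to other cells. The 37 genes described here, of 21938 protein-coding genes in GENCODE M21, were listed by name: 8 leukocyte integrin subunits, 17 integrin subunits of epithelium and matrix, 3 selectins and selectin ligands, 4 adhesion molecules of the immunoglobulin superfamily, 3 cadherins, and Cd44 and Cd47. All 37 were found in the annotation. They were examined in HPC7, an immortalized line of mouse hematopoietic progenitors grown with stem cell factor, and the sample labels give a single condition. Bulk ATAC-seq, in which the Tn5 transposase inserts adapters into accessible DNA, was performed on 7 libraries from separate cultures, HPC7-1, HPC7-2 and HPC7-4 to HPC7-8. For each library the authors deposited a list of open chromatin regions (OCRs) called on its own. The lists show where chromatin was open in 1 cultured line, and no RNA or protein value was used.

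An integrin is a heterodimer of an alpha and a beta subunit, and neither subunit reaches the cell surface without its partner. The subunits that pair with Itgb2 or Itgb7 are largely restricted to leukocytes, where they bind cell-surface ligands such as the ICAMs, MAdCAM-1 and E-cadherin, whereas most partners of Itgb1 and Itgav bind laminins, collagens or RGD motifs of the matrix. Selectins and their ligand Selplg mediate rolling, and talin and kindlin switch integrins to their active form.

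The lists held between 84593 and 132852 OCRs. Fold enrichment, the value used throughout, is the number of reads at the summit over a single background for the whole library, each with 1 read added, and this background lay between 4.44 and 20.4 reads. The lowest fold enrichment listed was between 1.68 and 2.44, so that weaker openings could not be detected. Peak names carried the prefix VD in 3 libraries (HPC7-1, HPC7-2 and HPC7-4) and EtOH in the other 4, which the labels do not explain, and all 7 were kept as 1 group. The values of the VD and EtOH libraries overlapped for each of the 23 promoters of these genes that were open in all libraries (0.464% of all such protein-coding promoters did not overlap). Away from starts, 4 of 213 OCRs of these genes did not overlap (2.05% of all such OCRs), among them 1 in Itgal described with the other OCRs. The 9 progenitor markers examined, among them Kit, Gata2 and Spi1, all had a promoter OCR in every library, and the 6 epithelial markers had none. Of the markers of other cell types, Col1a1 (14.0 ± 2.52, SD, n = 7) and Pdgfra (6.44 ± 1.68) of fibroblasts, Esam (43.7 ± 8.90) of endothelium, Cd3d (86.4 ± 21.6) of T lymphocytes, and Csf1r (4.85 ± 0.962) and Mpo (24.8 ± 6.06) of myeloid cells had a promoter OCR in all 7 libraries, whereas the other 14 of those 20 markers had none in any. Whether such cells were part of the cultures was not tested.

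A promoter OCR was a listed region with at least 1 bp within 1 kb of any annotated start of the gene, and the highest was taken where a gene had several. Of the 37 genes, 23 had a promoter OCR in all 7 libraries (62.2%, against 55.9% of all protein-coding genes), 9 had none in any library (38.2% of all protein-coding genes had none), and 5 had one in 1 to 6 libraries (5.91% of all protein-coding genes). The share of open promoters was thus near that of the genome. Of all 37 genes, 17 were in the top 25% of the OCRs of each library, a level reached by 48.3% of all protein-coding genes. The median promoter fold enrichment over the 37 genes, counting 0 where no OCR was listed, was 12.0 ± 3.28 (SD of the library medians, n = 7), and over all protein-coding genes it was 16.9 ± 3.18.

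The subunits of leukocyte and of matrix integrins did not split into open and closed. A promoter OCR was present in all 7 libraries in 6 of 8 leukocyte subunits and in 11 of 17 epithelial and matrix subunits (64.7%), beside the 55.9% of all protein-coding genes. No leukocyte subunit lacked a promoter OCR in every library, while 5 matrix subunits did, beside 38.2% of all protein-coding genes. At the high end, 3 of 8 leukocyte subunits and 8 of 17 matrix subunits were in the top 25% of OCRs in each library. That level was reached by 48.3% of all protein-coding genes. The median fold enrichment was 13.1 ± 3.42 for leukocyte subunits, with library medians from 8.92 to 17.4, and 7.58 ± 1.28 for matrix subunits, with library medians from 5.94 to 9.76. Both lay below the median of all protein-coding genes.

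**Figure D1:**
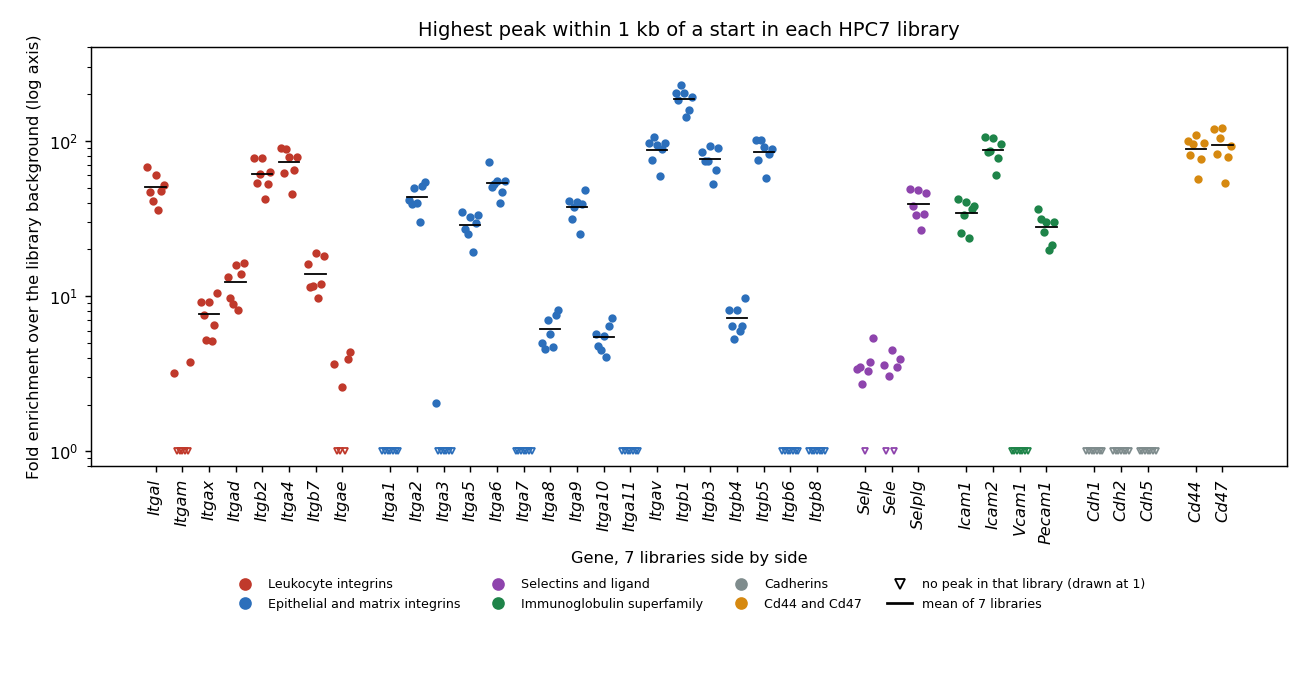
Fold enrichment (log axis) of the highest peak within 1 kb of a start, for the 37 genes on the horizontal axis grouped by class. Each point is 1 of the 7 libraries, the line is their mean for genes with a peak in all 7, and open triangles drawn at 1 are libraries with no peak. Itgb1 lies highest with a mean of 186.5, and the 3 cadherins and Vcam1 have no peak in any library.

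Among the leukocyte integrins, Itga4, Itgb2 and Itgal were the most open. Itga4 encodes the alpha subunit shared by the receptors for VCAM-1 and MAdCAM-1. Its fold enrichment was 45.4 at the lowest, 79.0 at the median and 89.5 at the highest library (mean 72.6 ± 16). The summit lay 0 to 10 bases upstream of the nearest start in all 7 libraries. The 250 bases that precede the most upstream start are shown because the gene has the strongest promoter OCR of the class, and capitals mark matches to the motifs described further on. The sequences here and below are the RefSeq promoters of GRCm38.p6, written 5′ to 3′ on the strand of the gene.
Itga4 promoter, chr2:79255176-79255425, plus strand: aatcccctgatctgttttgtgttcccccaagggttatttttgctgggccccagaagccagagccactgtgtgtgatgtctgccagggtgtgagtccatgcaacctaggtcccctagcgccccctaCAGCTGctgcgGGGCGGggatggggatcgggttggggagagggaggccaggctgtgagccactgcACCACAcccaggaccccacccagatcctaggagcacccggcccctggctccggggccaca

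Itgb2, the beta subunit of the leukocyte-restricted integrins, had a fold enrichment of 42.1 at the lowest, 60.8 at the median and 77.8 at the highest library (mean 61.2 ± 13.1). Its summit did not lie at a start but 820 to 840 bases downstream of the nearest one, at nearly the same place in all libraries, under a peak that reached across the starts. Itgal, the alpha subunit of LFA-1 and the main partner of Itgb2 on lymphocytes, ranged from 35.8 through a median of 47.2 to 67.6 (mean 50.1 ± 10.9). Its summit was within 13 bases of a start in every library.

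The other open leukocyte subunits were weaker. Itgb7, the partner of Itga4 on gut-homing cells, had values of 9.70, 11.9 and 19 at the lowest, median and highest library (mean 14.0 ± 3.69). Itgad, an alpha subunit of macrophages, ranged from 8.13 through 13.2 to 16.3 (mean 12.3 ± 3.35), all at a start 19570 bases downstream of the most upstream one, which had no OCR in any library. Itgax, the CD11c subunit of dendritic cells, ranged from 5.16 through 7.53 to 10.5 (mean 7.62 ± 2.09). The Itgax values rest on 32 to 195 reads at the summit. In 5 libraries its highest peak had the summit upstream of a retained-intron transcript that starts 5259 bases within the gene, and at the most upstream starts the fold enrichment was 6.35 ± 2.47.

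Itgam and Itgae had a promoter OCR in only some libraries. Itgam, the CD11b subunit of granulocytes and macrophages, was listed in HPC7-1 (3.18, 67 reads at the summit) and HPC7-8 (3.79, 25 reads) and in no other library. Itgae, which pairs with Itgb7 on intraepithelial lymphocytes, was listed in HPC7-1 (3.65), HPC7-5 (2.61), HPC7-7 (3.93) and HPC7-8 (4.37). The Itgam and Itgae peaks were in the lower part of each list, with no percentile above 36.3. HPC7-1 and HPC7-8 have the longest lists, and the part of list length in these calls was not tested. The Itgam promoter is shown as that of a leukocyte subunit without an OCR in 5 of 7 libraries. In at least 1 of HPC7-1 and HPC7-8 the peak also held a start of Gm49368.
Itgam promoter, chr7:128062390-128062639, plus strand: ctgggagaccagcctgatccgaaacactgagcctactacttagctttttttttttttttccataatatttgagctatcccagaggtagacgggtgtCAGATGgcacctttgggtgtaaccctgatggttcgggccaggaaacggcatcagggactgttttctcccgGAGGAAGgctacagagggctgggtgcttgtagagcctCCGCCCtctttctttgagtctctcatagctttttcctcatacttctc

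Of the matrix integrins, Itgb1 stood apart. Itgb1 is the beta subunit of the receptors for fibronectin, collagens and laminins and also pairs with Itga4. Its promoter reached 141.9 at the lowest, 190.8 at the median and 229.2 at the highest library (mean 186.5 ± 29.4), between the 98.7th and the 99.5th percentile of the OCRs of a library, and it ranked 772 among all protein-coding genes by its mean. It was higher than Cd47, the next of the 37 genes, in 7 of 7 libraries, by 1.03 ± 0.23 on the log2 scale. Its promoter is shown as the most open of the group.
Itgb1 promoter, chr8:128685404-128685653, plus strand: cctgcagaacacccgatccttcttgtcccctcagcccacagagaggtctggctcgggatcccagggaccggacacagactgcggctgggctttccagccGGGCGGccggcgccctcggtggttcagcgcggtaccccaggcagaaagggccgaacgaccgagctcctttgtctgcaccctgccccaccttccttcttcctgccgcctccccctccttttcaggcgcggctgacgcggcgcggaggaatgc

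Itgav, the alpha subunit of vitronectin receptors, had values of 59.0, 93.4 and 105.5 at the lowest, median and highest library (mean 87.8 ± 15.8). Itgb3, which pairs with Itgav and, on platelets, with Itga2b, ranged from 52.7 through 74.4 to 92.9 (mean 76.2 ± 14.4). Itgb3 and Itga4, neighbours in the order of means, were not separated, with Itgb3 higher in 4 of 7 libraries. The promoter of Itgav is shown for comparison with that of Itgb1.
Itgav promoter, chr2:83724147-83724396, plus strand: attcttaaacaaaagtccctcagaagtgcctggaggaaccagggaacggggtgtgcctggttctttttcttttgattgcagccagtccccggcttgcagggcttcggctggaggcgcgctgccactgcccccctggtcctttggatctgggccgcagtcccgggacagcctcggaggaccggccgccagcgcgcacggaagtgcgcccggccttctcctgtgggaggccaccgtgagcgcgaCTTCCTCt

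Itgb5, another partner of Itgav, ranged from 57.4 through 88.8 to 101.4 (mean 85.3 ± 15.5), yet this peak lay at the start of a processed transcript 92821 bases into the gene. At the most upstream starts, both of coding transcripts, the fold enrichment was 12.6 ± 2.25, with libraries from 8.45 to 15. Counted at the start of the first-named transcript only, Itgb5 left the top 25% and 7 of 17 matrix subunits were in it. For the other subunits of both classes, Itgax apart, the mean was the same at that start.

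The remaining open matrix subunits fell into a strong and a weak set. Itga6, a laminin receptor subunit, had a mean of 53.4 ± 10.4, Itga2, a collagen receptor subunit, 43.6 ± 8.44, Itga9, a receptor subunit for tenascin and VCAM-1, 37.4 ± 7.34, and Itga5, the fibronectin receptor subunit, 28.7 ± 5.47. Itgb4, the hemidesmosome subunit that pairs with Itga6, had a mean of 7.18 ± 1.57, Itga8, a nephronectin receptor subunit, of 6.10 ± 1.46 and Itga10, a collagen receptor subunit of cartilage, of 5.47 ± 1.13. The lowest library of the strong set, at 19.2, was above the highest of the weak set, at 9.76. The sets were drawn from these same values, so this gap is a description only. Itgb5, with a mean of 12.6 at its most upstream starts, would lie between them. Itga3 was listed in HPC7-1 only (2.06, 43 reads at the summit), at a retained-intron transcript 20606 bases into the gene. The 5 subunits without a promoter OCR in any library were Itga1, Itga7 and Itga11, which bind collagens or laminins, and Itgb6 and Itgb8, the partners of Itgav that bind latent TGF-beta.

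Among the other adhesion genes, Cd47, Cd44, Icam2, Selplg, Icam1 and Pecam1 were open in all 7 libraries, and the promoters of the selectins Selp and Sele were weak, while Vcam1 and the cadherins had no OCR within 1 kb of a start. Cd47, the ligand of SIRP-alpha, ranged from 53.8 through 93.1 to 121.3 (mean 93.3 ± 23.9), and Cd44, the hyaluronan receptor, from 56.5 through 95.7 to 109.1 (mean 88.0 ± 17.7). Icam2, a ligand of LFA-1, ranged from 60.2 through 85.4 to 106.3 (mean 87.7 ± 16.2). That Icam2 peak lay at starts 5079 to 7274 bases downstream of the most upstream one, which had an OCR of its own at 38.7 ± 9.10. The Cd47 peak likewise lay at starts 54833 to 55254 bases downstream of the most upstream one, at which the mean was 79.6 ± 17.8.

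Selplg, the ligand of P-selectin, had a mean of 39.4 ± 8.70 and Icam1, the inducible ligand of LFA-1, of 34.3 ± 7.22. Pecam1, shared by endothelium, platelets and leukocytes, had a mean of 27.8 ± 5.91, with its summit upstream of the start. In at least 1 library its peak also held a start of Milr1, so that the opening cannot be given to either gene. The selectins had weak peaks: Selp, of platelets and endothelium, was listed in 6 libraries between 2.72 and 5.39 and not in HPC7-5, and Sele, of activated endothelium, in 5 libraries between 3.08 and 4.52. Vcam1, the endothelial ligand of Itga4, had no OCR in any library, neither at its starts nor in the gene body and the 20 kb on either side. The cadherins Cdh1 of epithelium, Cdh2 of nervous and mesenchymal tissue and Cdh5 of endothelium had no promoter OCR in any library. The Cdh5 window nevertheless held an OCR in all 7 libraries at -2113 bases from the start, in an intron of Gm29682, which ranged from 25.8 to 45.7 (mean 33.5 ± 7.65) and counted for Cdh5 with a promoter window of 3 kb.

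In the order of the 23 genes found in all libraries, few neighbours were separated beyond the spread of the libraries. Of 22 neighbouring genes compared by their log2 difference within a library, 5 kept the same order in all 7 libraries, namely Itgb1 above Cd47, Itga4 above Itgb2, Itgb2 above Itga6, Pecam1 above Itgb7, and Itgad above Itgax. In 15 of the 22 the mean difference was below its SD, and the run from Cd47 through Cd44, Itgav, Icam2, Itgb5 and Itgb3 to Itga4 was not separated at any step. HPC7-6 gave the lowest value for 21 of the 23 genes, and its median over all promoter OCRs was also the lowest, at 55.1, against 92.0 in HPC7-5. The coefficient of variation was between 15.8% and 27.4% for fold enrichment, and between 4.33% and 25.5% after division by this library median. It was lower after this division for 21 of the 23 genes, for example 18.4% and 4.33% for Icam2, and not for Itga2 (19.3% and 19.5%) and Itga8 (24.0% and 25.5%).

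Since both subunits are needed for a receptor, the promoters of known heterodimers were compared within each library. Of 23 heterodimers listed, 15 had a promoter OCR of both subunits in all libraries and were tested by flipping the signs of the 7 within-library differences in every combination (two-sided exact permutation test), for which the smallest possible p is 0.0156. The difference had the same sign in 7 of 7 libraries for 14 of the 15, each with an exact p of 0.0156 and an adjusted p of 0.0167 (Benjamini-Hochberg over 15). The beta subunit was higher in 11 and the alpha subunit in 3. The 11 pairs all have Itgb1 or Itgb2 as the beta subunit, so they are not separate observations. The sign of those with Itgb1 followed from the promoter values given above. Its lowest library, at 141.9, was above the highest of any tested partner, at 105.5 for Itgav. With every library on the same side the p-value cannot go lower, so the sizes below carry the comparison.

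The Itgb2 promoter was higher than those of all 3 tested partners. Over Itgal the difference was 0.29 ± 0.14 on the log2 scale (0.17 to 0.57), over Itgad 2.34 ± 0.31 and over Itgax 3.03 ± 0.29. The differences of the LFA-1 pair lay below those of the other pairs of Itgb2 without overlap. The Itgb1 promoter was higher than those of all 8 tested partners. The difference was smallest over Itgav, at 1.09 ± 0.16, and Itga4, at 1.38 ± 0.17, and largest over Itga8, at 4.95 ± 0.37, and Itga10, at 5.10 ± 0.35. Between these lay Itga6 (1.81 ± 0.19), Itga2 (2.11 ± 0.27), Itga9 (2.33 ± 0.25) and Itga5 (2.71 ± 0.27).

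The promoters of Itga4 and Itga6 lay below that of Itgb1 and above that of their other beta subunit. Itga4 lay 1.38 below Itgb1 and, with a difference of -2.39 ± 0.29 for Itgb7 over Itga4, above Itgb7 in 7 of 7 libraries. Itga6 lay 1.81 below Itgb1 and above Itgb4, for which the difference was -2.90 ± 0.28. Itgav and Itgb3 were close, at -0.20 ± 0.20 with libraries from -0.50 to -0.01. Itgb5 over Itgav gave -0.04 ± 0.07 with 2 of 7 libraries on the positive side (exact p = 0.188, adjusted p = 0.188). At the start of the first-named transcript, Itgb5 lay below Itgav in 7 of 7 libraries, by a difference of -2.80 ± 0.17 (exact p = 0.0156), so this comparison depends on which start is taken.

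**Figure D2:**
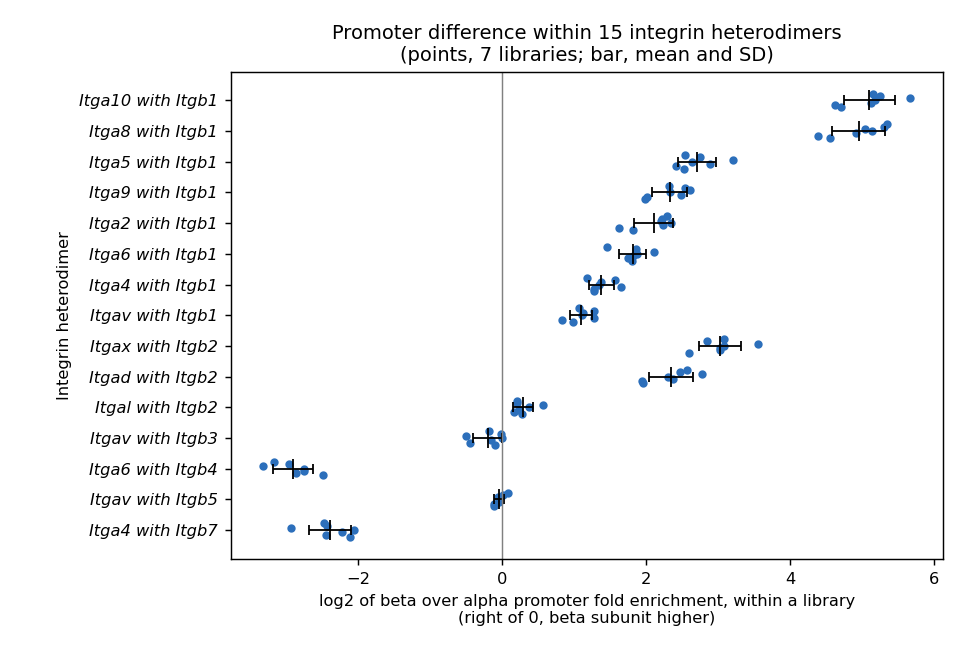
Difference of log2 promoter fold enrichment, beta minus alpha subunit, within a library (horizontal axis) for 15 integrin heterodimers (vertical axis). Points are the 7 libraries, and the bar gives the mean and SD. Partners of Itgb1 lie to the right of 0, from 1.09 for Itgav to 5.10 for Itga10, and Itga4 with Itgb7 and Itga6 with Itgb4 lie to the left.

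The classes differed in the sequence of their promoters, which the choice of genes did not use. A promoter was called CpG-rich when the 500 bases on either side of the start of the first-named transcript had a GC content of at least 50% and a CpG observed over expected ratio of at least 0.6. None of the 8 leukocyte subunits was CpG-rich (median ratio 0.23), and 10 of 17 matrix subunits were (median ratio 0.69), beside 44.7% of all protein-coding promoters (median ratio 0.55). Among all protein-coding genes 84.2% of CpG-rich promoters and 33.1% of the others had an OCR in all 7 libraries. Of the 8 CpG-poor leukocyte promoters 6 were open in all libraries, whereas of the 7 CpG-poor matrix promoters 2 were, Itga2 and Itga10. Of the 10 CpG-rich matrix promoters 9 were open, the exception being Itga3. Over all 37 genes, 13 of 24 CpG-poor and 10 of 13 CpG-rich promoters were open in all libraries.

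CpG-rich promoters were not always strong, as Itgb4 and Itga8, both with a ratio of 0.76, had means of 7.18 and 6.10. Conversely Icam2 (ratio 0.18), Cd44 (0.34) and Itgb2 (0.24) were CpG-poor and had means of 87.7, 88.0 and 61.2. Against the 4012 CpG-poor promoters open in all libraries, whose median was 52.4, Icam2 was at percentile 72.7, Itga4 at 64.1, Itgb2 at 56.7 and Itgal at 48.6, whereas Itgb7, Itgad and Itgax were at percentiles 19.8, 17.8 and 10.1. Spearman's rho between the CpG ratio and the mean fold enrichment was 0.18 across the 37 genes and 0.60 across 21899 protein-coding genes, as a description across genes of the same libraries. With the fold enrichment at the first-named start, rho across the 37 genes was 0.14.

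**Figure D3:**
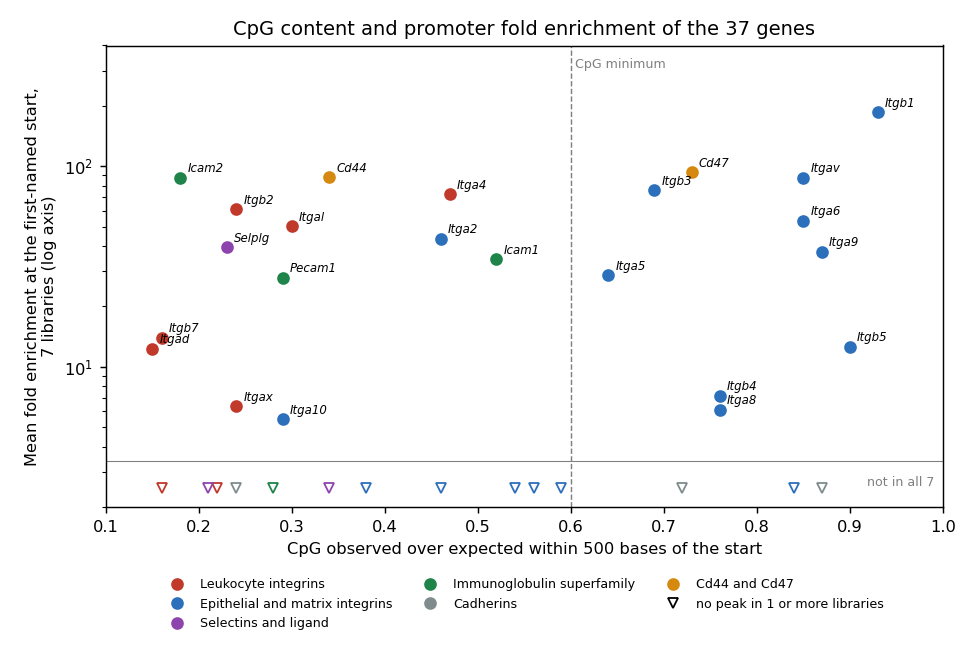
CpG observed over expected ratio within 500 bases of the first-named start (horizontal axis) and mean promoter fold enrichment of 7 libraries at that start (vertical log axis) for the 37 genes, coloured by class. Open triangles are genes without a peak in 1 or more libraries, drawn below the line. All 8 leukocyte integrins lie left of the minimum of 0.6, and Itgb1, at 0.93 and 186.5, lies at the upper right.

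Short motifs were matched on both strands of the 250 bases before the start in the RefSeq promoter table, which held 22 of the 37 genes (Itga9 and Cd47 only at inner starts), and their share was taken over all 32851 promoters of that table. The whole 250 bases (217 for Itga10) were searched, including bases that overlap an annotated exon. The PU.1 box GAGGAAG was in 5 of the 22 genes (Cd44, Itga11, Itgam, Itgav and Itgb6) and in 10.6% of all promoters, and the GATA site AGATAA in 2 (Cd44 and Itgax) and in 9.99%. The RUNX site TGTGGT was in 2 genes (Itga3 and Itga4) and in 14.0% of all promoters, the ETS site CCGGAAG, which shares its last 5 letters with the PU.1 box, in 2 (Cd47 and Itga3) and in 6.91%, and the AP-1 site TGANTCA in 3 (Itgax, Sele and Selp) and in 6.75%. The GC box GGGCGG was in 8 genes and in 32.7% of all promoters, and the E-box CAGNTG in 13 and in 44.8%. The matches of Itgb6 and Itgb8 and the ETS site of Itga3 lay outside the exon-free stretch of their windows, and that of Itgb6 before only 1 of its starts. Genes with a PU.1 box included open promoters (Cd44 and Itgav) as well as Itgam, Itga11 and Itgb6, which had an OCR in 2, 0 and 0 libraries. A match is a description of the letters and does not show binding.

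Outside their promoters, 28 of the 37 genes lay in windows with a higher density of OCRs than the median protein-coding gene and 9 in windows with a lower one. In the gene bodies and 20 kb on either side, 271 merged OCRs were found in all 7 libraries apart from the promoters of the gene itself. Of these, 58 lay within 1 kb of a start of another gene and 213 away from any start, 121 in introns, 48 over exons and 44 between genes. At least 1 OCR away from any start and present in all libraries was found for 35 of the 37 genes, the exceptions being Itgb8 and Vcam1. The share of all protein-coding genes with such an OCR was 70.7%, not matched for window length. The median density of such OCRs was 5.64 per 100 kb of window for the 37 genes and 2.37 for all protein-coding genes. It was 6.18 for leukocyte subunits and 5.09 for matrix subunits, both above the median of all protein-coding genes.

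**Figure D4:**
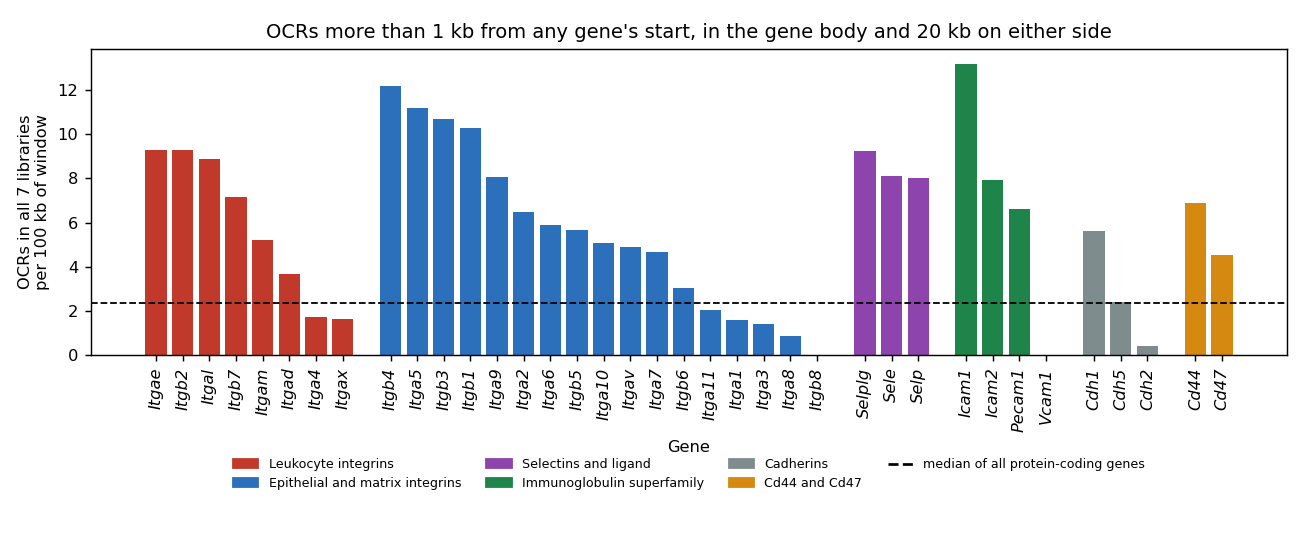
Number of OCRs per 100 kb (vertical axis) that were found in all 7 libraries and lay more than 1 kb from any gene's start, in the gene body and 20 kb on either side, for each gene (horizontal axis) by class. The dashed line at 2.37 is the median of all protein-coding genes. Icam1 is highest at 13.2, and Itgb8 and Vcam1 are at 0.

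Icam1 had the highest density, with 13.2 per 100 kb, followed by Itgb4 with 12.2, Itga5 with 11.2, Itgb3 with 10.7 and Itgb1 with 10.3. In the leukocyte class Itgae (9.29), Itgb2 (9.28) and Itgal (8.87) were the highest. Density and promoter level could be far apart: Itgae, with a promoter OCR in 4 libraries, and Itgb4, at 7.18, had dense windows, and Itga4, with a mean of 72.6 at its promoter, had 1.70 per 100 kb. The OCRs away from starts had a median fold enrichment of 11.7, and that of all 49204 such OCRs of the genome was 9.26.

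The strongest OCR away from any start lay in an intron of Selp, 20322 bases downstream of the most upstream start (chr1:164134087-164137094). Its fold enrichment was 196.6 at the lowest, 281.4 at the median and 341.2 at the highest library (mean 277.0 ± 50.5), at or above the 99.8th percentile of OCRs in each library and rank 18 among the 49204 OCRs away from any start that all libraries shared. Its mean was above that of any promoter among the 37 genes, while the Selp promoter itself did not exceed 5.39 in any library. Further OCRs of the same window, at -5218 bases from the start (54.9 ± 7.57) and 23642 bases downstream (51.5 ± 6.60), were also found in all 7 libraries. The gene which this OCR acts on, if any, was not measured.

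Other strong OCRs lay in introns of matrix integrins. In Itga9 such an OCR was 71861 bases downstream of the start (chr9:118676614-118679264, 63.0 to 118.5, mean 96.2 ± 18.4), in Itga2 it was 16143 bases downstream (chr13:114914591-114917009, 61.2 to 109.9, mean 89.1 ± 15.7), and in Itga6 it was 68595 bases downstream of the most upstream start (chr2:71812071-71814851, 45.5 to 97.4, mean 72.2 ± 16.7). All 3 had a higher mean than the promoter of the same gene. In Itga5 an intronic OCR 4215 bases downstream (chr15:103361054-103363439) ranged from 53.5 to 82.5, with a mean of 65.2 ± 11.6, and in Itgb3 one 3805 bases downstream (chr11:104611049-104612304) ranged from 43.5 to 74.1, with a mean of 60.4 ± 10.7. An OCR 43963 bases downstream of the Itga7 start, over an exon of the neighbouring 9030616G12Rik, ranged from 46.0 to 88.7, with a mean of 67.9 ± 14.3, although no promoter OCR was listed for Itga7.

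In the leukocyte class the strongest were in Itgb7, 6565 bases downstream and over exons of the gene (chr15:102224105-102226163, 45.4 to 75.7, mean 61.0 ± 11.5), and in an intron of Itga4, 14982 bases downstream (chr2:79269878-79270840, 41.1 to 75.2, mean 60.2 ± 10.6). The Itgb7 OCR was higher than the Itgb7 promoter, whose highest library was 19, in all libraries. Upstream of Itgb2 an OCR between genes, at -6711 bases from the start, had a mean of 49.7 ± 9.59, and in an intron of Itgad one 25880 bases downstream of the most upstream start had a mean of 48.9 ± 10.6 against 12.3 at the promoter. Itgam, with no promoter OCR in 5 libraries, had an OCR in all 7 libraries at -11689 bases from its start, between genes, with a mean of 38.5 ± 14.3.

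An OCR over coding exons of Itgal, 26121 bases downstream of its most upstream start (chr7:127321331-127323091), split the libraries. Its fold enrichment was 59.9, 52.0 and 53.8 in HPC7-1, HPC7-2 and HPC7-4, and 11, 5.94, 8.59 and 12.4 in HPC7-5 to HPC7-8. The VD libraries were thus all above the EtOH libraries, with means of 55.3 and 9.47 and a ratio of 5.84, a ratio reached by 10 of the 49204 shared OCRs away from starts. The Itgal promoter overlapped between them. Of the 213 OCRs of these genes, 3 were higher and 1 lower in VD without overlap, and 1 of these, the Itgal OCR, differed by at least 2-fold, beside 0.331% of all 49204. After division by the library median of promoters, 13 of the 213 did not overlap, 6 higher and 7 lower in VD, beside 6.19% of all 49204 (1223 higher and 1823 lower, against 902 and 108 without the division), and 1, again the Itgal OCR, differed by at least 2-fold, beside 0.270%. Both counts of these genes were near the share of all OCRs. This OCR was picked out after its values were seen, and what the prefixes stand for is not given, so that no condition can be named.

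**Figure D5:**
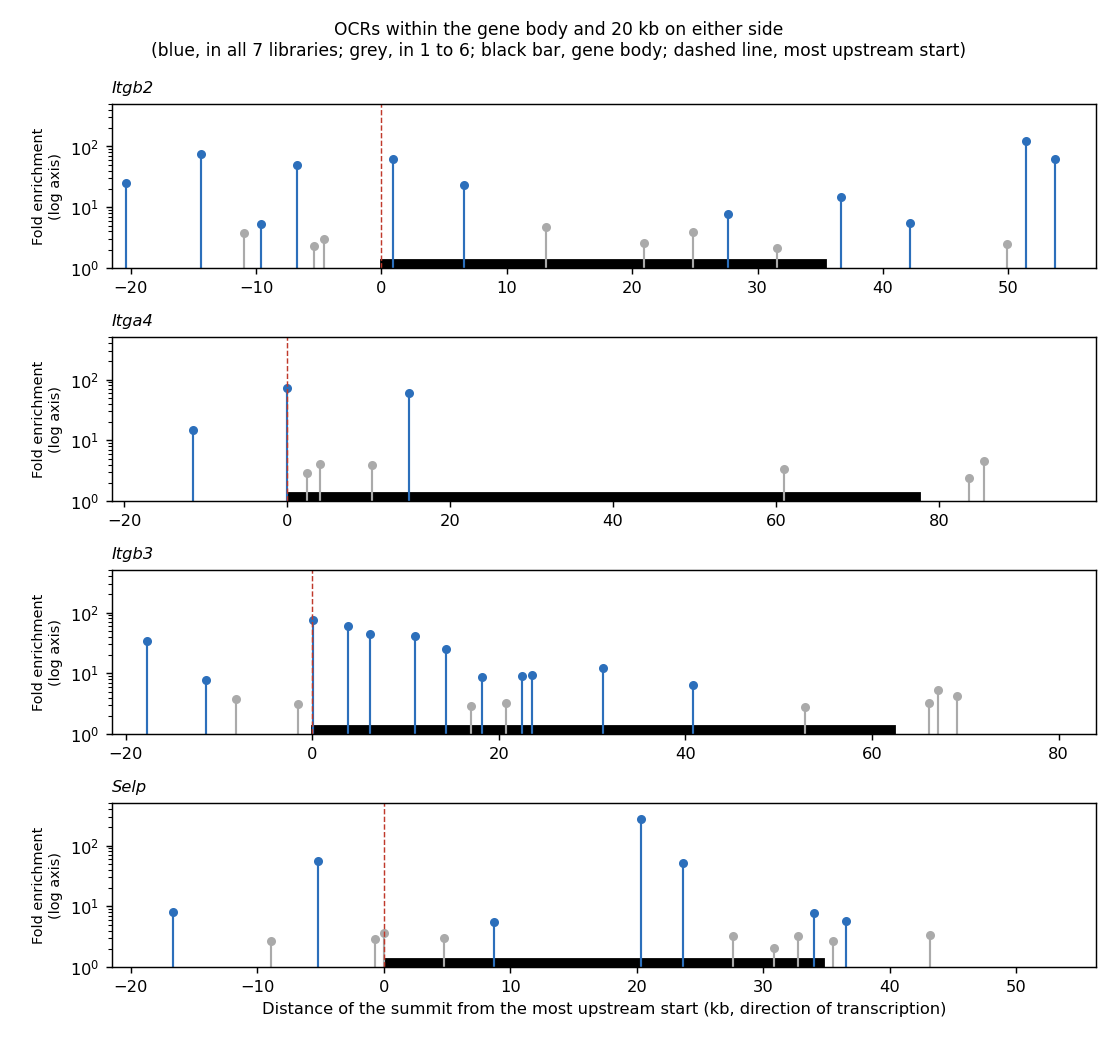
Mean fold enrichment (vertical log axis) of the OCRs in the windows of Itgb2, Itga4, Itgb3 and Selp. The horizontal axis is the distance of the summit from the most upstream start in kb. OCRs at starts of other genes are included, among them the highest in the Itgb2 window, at 123.6. Blue OCRs were found in all 7 libraries, grey ones in 1 to 6, and the black bar is the gene body. The Selp intron holds the highest OCR, at 277.0, while Itga4 has 2 strong OCRs, its promoter at 72.6 and an intronic one at 60.2.

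The 100 bases on either side of the summit are shown for the strongest OCR in an intron of Selp, for those of Itga9 and Itga6, and for those of Itgb3 and Itga4 as a matrix and a leukocyte subunit with a like level. They were read from GRCm38.p6 on the plus strand, on which all 5 genes lie, and overlap no exon. Capitals mark the same motifs as in the promoters.
Selp, chr1:164135486-164135686: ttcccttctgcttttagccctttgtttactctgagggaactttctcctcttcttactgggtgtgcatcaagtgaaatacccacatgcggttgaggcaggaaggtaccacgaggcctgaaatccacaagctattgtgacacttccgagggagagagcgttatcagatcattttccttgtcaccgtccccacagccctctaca
Itga9, chr9:118678451-118678651: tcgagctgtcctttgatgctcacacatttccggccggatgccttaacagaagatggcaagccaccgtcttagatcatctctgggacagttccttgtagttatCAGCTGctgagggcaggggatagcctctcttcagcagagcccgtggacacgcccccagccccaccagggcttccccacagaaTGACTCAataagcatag
Itga6, chr2:71814111-71814311: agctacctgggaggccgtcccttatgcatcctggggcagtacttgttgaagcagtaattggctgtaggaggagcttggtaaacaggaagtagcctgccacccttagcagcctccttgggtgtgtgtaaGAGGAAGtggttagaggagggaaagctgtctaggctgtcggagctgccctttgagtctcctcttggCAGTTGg
Itgb3, chr11:104611705-104611905: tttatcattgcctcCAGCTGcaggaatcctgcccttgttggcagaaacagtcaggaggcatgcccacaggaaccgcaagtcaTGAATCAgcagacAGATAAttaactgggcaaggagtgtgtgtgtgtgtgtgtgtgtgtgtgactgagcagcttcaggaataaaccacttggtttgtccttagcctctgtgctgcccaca
Itga4, chr2:79270308-79270508: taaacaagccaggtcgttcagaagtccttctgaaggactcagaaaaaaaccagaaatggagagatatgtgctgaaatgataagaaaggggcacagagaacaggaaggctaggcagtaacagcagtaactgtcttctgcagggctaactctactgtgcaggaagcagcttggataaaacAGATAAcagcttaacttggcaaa

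Only the spellings given above were matched, so other spellings of the same sites were not counted. The Selp sequence held none of the 7 motifs as spelled. Nor did the same width at the strongest Itga2 OCR, whose sequence is not shown. That of Itga9 held an E-box and an AP-1 site, that of Itga6 a PU.1 box and an E-box, that of Itgb3 a GATA site, an E-box and an AP-1 site, and that of Itga4 a GATA site. Over the same width at the 213 OCRs of these genes, the GATA site was in 40, the PU.1 box in 38, the RUNX site in 76, the E-box in 103, the AP-1 site in 27, the GC box in 12 and the ETS site in 1. Of all 49204 shared OCRs away from starts, 17.2% held the GATA site, 17.9% the PU.1 box, 30.6% the RUNX site, 48.3% the E-box, 12.9% the AP-1 site, 6.0% the GC box and 1.54% the ETS site.

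The genes that activate integrins and carry their signals were mostly open. Of the 30 genes of that list, 24 had a promoter OCR in all 7 libraries, 4 in some and 2 in none, beside the 55.9% of all protein-coding genes. Talin, which binds the beta tail, was represented by Tln1 at 162.8 ± 39.5, while Tln2 was listed in 2 libraries. Of the kindlins, Fermt3 of blood cells had a mean of 88.6 ± 19, Fermt2 was listed in 5 libraries and Fermt1 of epithelium in none. The Rap1 arm was open at Rap1b (98.3 ± 17), Rap1a (55.1 ± 8.89), the adaptor Apbb1ip (66.4 ± 15.7) and the exchange factor Rasgrp2 (39.6 ± 8.08). Among the kinases Syk (57.3 ± 14.0) and Ptk2b (56.4 ± 12.7) were stronger than Src (15.7 ± 4.19) and Fgr (10.6 ± 2.07). The list also holds Itga2b, the alpha subunit of the platelet fibrinogen receptor, whose promoter at 135.5 ± 28.0 was above that of every integrin subunit described here apart from Itgb1.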

How the data were processed

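Bulk ATAC-seq of HPC7 cells was analysed from the peak lists of 7 libraries, which the paper describes as coming from separate culture batches. Per its methods, adapters were removed with Cutadapt, BWA-mem was used for alignment (mm10), and MACS2 for peak calling; 1 list per library was deposited, and versions and options are not given in the sources used here. Each deposited list gives per peak a fold enrichment (a ratio to the library background), a -log10 p-value and a -log10 q-value, a score derived from the q-value, and the summit. The authors' fold enrichment is normalized within a library only. All values were whole multiples of 1 step per library (tolerance 0.05), from which reads at the summit were recovered. The total read depth was not used, and the number of reads at a summit sets its precision.

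Starts were those of GENCODE M21. Chromosome lengths of the peaks and of GRCm38.p6 were compatible. Peaks overlapping by at least 1 bp were merged. Promoter sequences came from the RefSeq table, which held 22 of the 37 genes and not Itga7, Cdh1, Vcam1, Itgad, Itgb3, Itgb4, Selplg, Itgal, Cdh2, Icam2, Cdh5, Pecam1, Itgb2, Itga6 and Itgae. The genes, classes and lists were chosen with earlier results of these data known. Library ranges were given for the 8 leukocyte subunits, Itgb1, Itgav and the top 8 genes by mean, and for the 8 strongest OCRs away from starts; the Selp neighbours and the Itgal, Itga4, Itgb2, Itgad and Itgam OCRs were named after their values were seen. Heterodimers were tested by an exact permutation test that flipped the signs of the differences in all 128 patterns of 7 libraries, with Benjamini-Hochberg adjustment. Alternatives were other windows, flanks, peak thresholds, intensities, transcript starts and each library left out. The functions were tested on simulated data. The tools were bedtools 2.31.1, samtools 1.23.1, pysam 0.24.0, scipy 1.17.1, pandas 2.3.3, numpy 2.4.6 and matplotlib 3.10.9 under Python 3.11.15.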

Additional observations from a re-analysis of the deposited data

Results flagged for a closer look

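Of 75 measures tested for a library far from the other 6, 4 were past the 95% critical value of Dixon's test, and chance flags about 1 in 20. All 4 were numbers of OCRs other than promoters in HPC7-1, the library with the longest list (132852 OCRs) and the highest background (20.4 reads). HPC7-1 listed 21 such OCRs around Itgam, where the next library had 14, and 23 around Itga6, where the next had 16. Around Selplg it listed 19 against 13, and around Cdh1 14 against 10. No promoter fold enrichment and no heterodimer difference was past the critical value in any library. The part of list length in these 4 counts was not tested.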

How the results depend on the processing

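Of 187 values recomputed under an alternative, 183 kept their direction and their side of the threshold, stayed within 1.5 times of a count, or moved a median by less than the SD between libraries. In the windows of the 37 genes 271 OCRs were common to the 7 libraries, 134 in gene bodies alone and 414 with flanks of 50 kb, since the windows are smaller or larger. The median of the matrix integrins, 7.58, was 5.34 without the widely expressed Itgb1, Itgav, Itga5 and Itga6. The difference between Itgb5 and Itgav, -0.04, was -2.80 at the start of the first-named transcript, an alternative chosen after seeing the data. With a promoter window of 3 kb the open genes were 28, with Itgam, Itgae, Itga7, Selp and Cdh5 added, and all 8 leukocyte subunits were then open. The share of all protein-coding genes open in that wider window was not determined, so these counts have no background to be read against. Leaving out each library in turn gave between 23 and 24 open genes (24 without HPC7-5, with Selp added), 6 leukocyte and 11 matrix subunits each time, between 271 and 293 shared OCRs, and 14 heterodimers past the threshold and 14 with the same sign each time. With 6 libraries the smallest exact p is 0.0312. A gene open in all 7 libraries is open in any subset of them, and a pair with the same sign in all 7 keeps it. The counts of genes and heterodimers could therefore only stay or rise, here and within each prefix, and do not test stability. They are among the 183 values. Peak names carried VD in 3 libraries and EtOH in 4, which the labels do not explain; open genes numbered 24 in the former and 23 in the latter, and heterodimers with the same sign 14 and 15. The Itgal OCR at 26121 bases differed by at least 2-fold without overlap between them, as did 163 of all 49204, a comparison added after seeing the data. Openings below the lowest listed fold enrichment cannot be seen at this depth. No paired analysis was possible because the libraries form a single group, so that replicate numbers pair no samples across groups; the heterodimers were compared within each library.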
